A study of Mus musculus with 15 samples.

Results

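The p53 pathway was followed through 10 genes in mouse cerebellar granule neuron precursors and in medulloblastoma. They were Trp53 itself, its inhibitors Mdm2 and Mdm4, and the target genes Ccng1, Sesn2, Zmat3, Phlda3, Bax, Bbc3 and Pmaip1. The genes were taken by name from the 21889 genes of the count tables, and all 10 were present and passed the filter on low counts. RNA-seq of poly(A) RNA was available from 15 libraries, 3 in each of 5 groups. Granule neuron precursors came from Math1-GFP mice at E15.5 and from wild-type mice at P1, P7 and P14. Medulloblastoma cells (MB) came from Ptch1 heterozygous mice whose age the labels do not give. All cells were purified from cerebellum on Percoll gradients, and no group carried a p53 allele or an agent that activates p53, as far as the labels say. The labels do not say whether libraries of 1 group came from separate animals, so the p-values measure only the spread between these libraries, which may be technical.

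As background, p53 is a transcription factor that is made continuously and kept low by protein turnover. The ubiquitin ligase Mdm2 binds p53 and sends it for degradation, and its partner Mdm4 blocks the activation domain of p53. DNA damage, or the Arf protein of the Cdkn2a locus, frees p53, which then raises genes that stop the cell cycle, limit growth or start apoptosis, and also raises Mdm2, its own inhibitor. Regulation of p53 itself acts largely on the protein, which these data do not measure. Granule neuron precursors divide in response to Sonic hedgehog, Ptch1 is the receptor that restrains that signal, and loss of p53 in Ptch1 heterozygous mice is known to speed medulloblastoma.

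p53 binds DNA at a 10-base motif of 3 purines, C, 2 bases that are A or T, G and 3 pyrimidines, usually present as adjoining copies. Promoter windows of 300 bases (250 before to 50 after a RefSeq start, GRCm38.p6) were at hand for 8 of the 10 genes, with 11 windows in all. The motif is its own reverse complement, so 1 search covers both strands. Trp53, Mdm2, Ccng1 and Bax each held 1 match, which was 36.4% of the 11 windows, against 8.36% of all 32851 windows searched. Only exact matches were counted, so a single match is 1 exact copy of the motif. Adjoining copies with a mismatched base were not searched for. The stretches around these matches are shown because p53 binds at such motifs, with that of Cdkn1a, the best known target, for comparison. Capitals mark the motif and each stretch is written 5′ to 3′ on the strand of its gene.

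Trp53, chr11:69580259-69580318, plus strand: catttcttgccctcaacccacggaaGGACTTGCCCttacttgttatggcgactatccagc

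Mdm2, chr10:117710910-117710969, minus strand: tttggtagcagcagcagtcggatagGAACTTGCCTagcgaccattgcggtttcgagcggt

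Ccng1, chr11:40755437-40755496, minus strand: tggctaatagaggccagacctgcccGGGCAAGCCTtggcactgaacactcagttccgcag

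Bax, chr7:45467065-45467124, minus strand: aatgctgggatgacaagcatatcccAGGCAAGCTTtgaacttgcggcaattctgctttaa

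Cdkn1a, chr17:29090881-29090962, plus strand: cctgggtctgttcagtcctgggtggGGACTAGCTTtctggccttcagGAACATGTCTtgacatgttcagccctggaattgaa

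The matches began 75 bases upstream of the start of Trp53, 186 upstream of Mdm2, 185 upstream of Ccng1 and 201 upstream of Bax. Cdkn1a held 2 matches in 1 of its 2 windows, 73 and 51 bases upstream. The windows of Mdm4, Bbc3, Phlda3 and Sesn2 held no run of these letters. A match, or its lack, describes the sequence of the window only, and sites outside the windows were not searched. Binding was not measured in the libraries analysed here.

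The libraries held 12597472 to 43443132 reads in genes. Marker genes differed between the groups as well as the p53 genes. Summed astroglial markers ran from 86.6 to 193 CPM (gene counts scaled to a common library size by the TMM method) at E15.5 and from 3272 to 4195 CPM at P14. Oligodendrocyte markers ran from 67.9 to 102 CPM at E15.5, from 894 to 1741 CPM at P7 and from 5394 to 5869 CPM at P14, and endothelial and mural markers from 24.0 to 57.8 CPM at E15.5, from 476 to 679 CPM at P7, from 1285 to 1394 CPM at P14 and from 27.9 to 44.5 CPM in MB. Granule precursor markers were present in every group, at 2449 to 6031 CPM over all libraries. In a bulk sample, fewer cells of a type and less RNA per cell cannot be told apart. The gene table of 6 libraries lacked nearly all reads of a few genes, such as Tsnax, that the transcript table held. These libraries were E15.5 replicates 1 and 3, all of P7, and MB replicate 1. These 6 and the other 9 libraries are called the 2 sets of libraries, or counting sets. The split was drawn from Tsnax alone, and the labels name no such sets. For each of the 10 p53 genes the share of the transcript table's reads found in the gene table overlapped between these 6 and the other 9 libraries, at 93.8% or above in every library. MB replicate 1 also had the largest share of reads with several alignments, 44.6%, against 32.0% and 30.7% in MB replicates 2 and 3. E15.5 replicate 3 came next at 42.2%, against 32.5% and 32.3% in E15.5 replicates 1 and 2. Of the E15.5 libraries, replicate 3 had the highest Bax and the lowest Mdm4 and Zmat3. The part of these reads in those values was not tested.

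Per kilobase of exon and averaged over the 15 libraries, Bax was the most abundant of the 10 at 80.2 CPM per kb, followed by Trp53 at 56.1, Mdm4 at 29.8, Mdm2 at 28.6 and Ccng1 at 18.3 CPM per kb. Bbc3 (8.60), Zmat3 (8.26), Sesn2 (6.33), Phlda3 (3.60) and Pmaip1 (2.66 CPM per kb) were the least abundant. Counts were ample for most genes, and the lowest count of any of the 10 in any library was 19, for Phlda3. Mdm2 varied least, 1.73-fold between its lowest and highest library, and Phlda3 most, 12.7-fold.

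**Figure D1:**
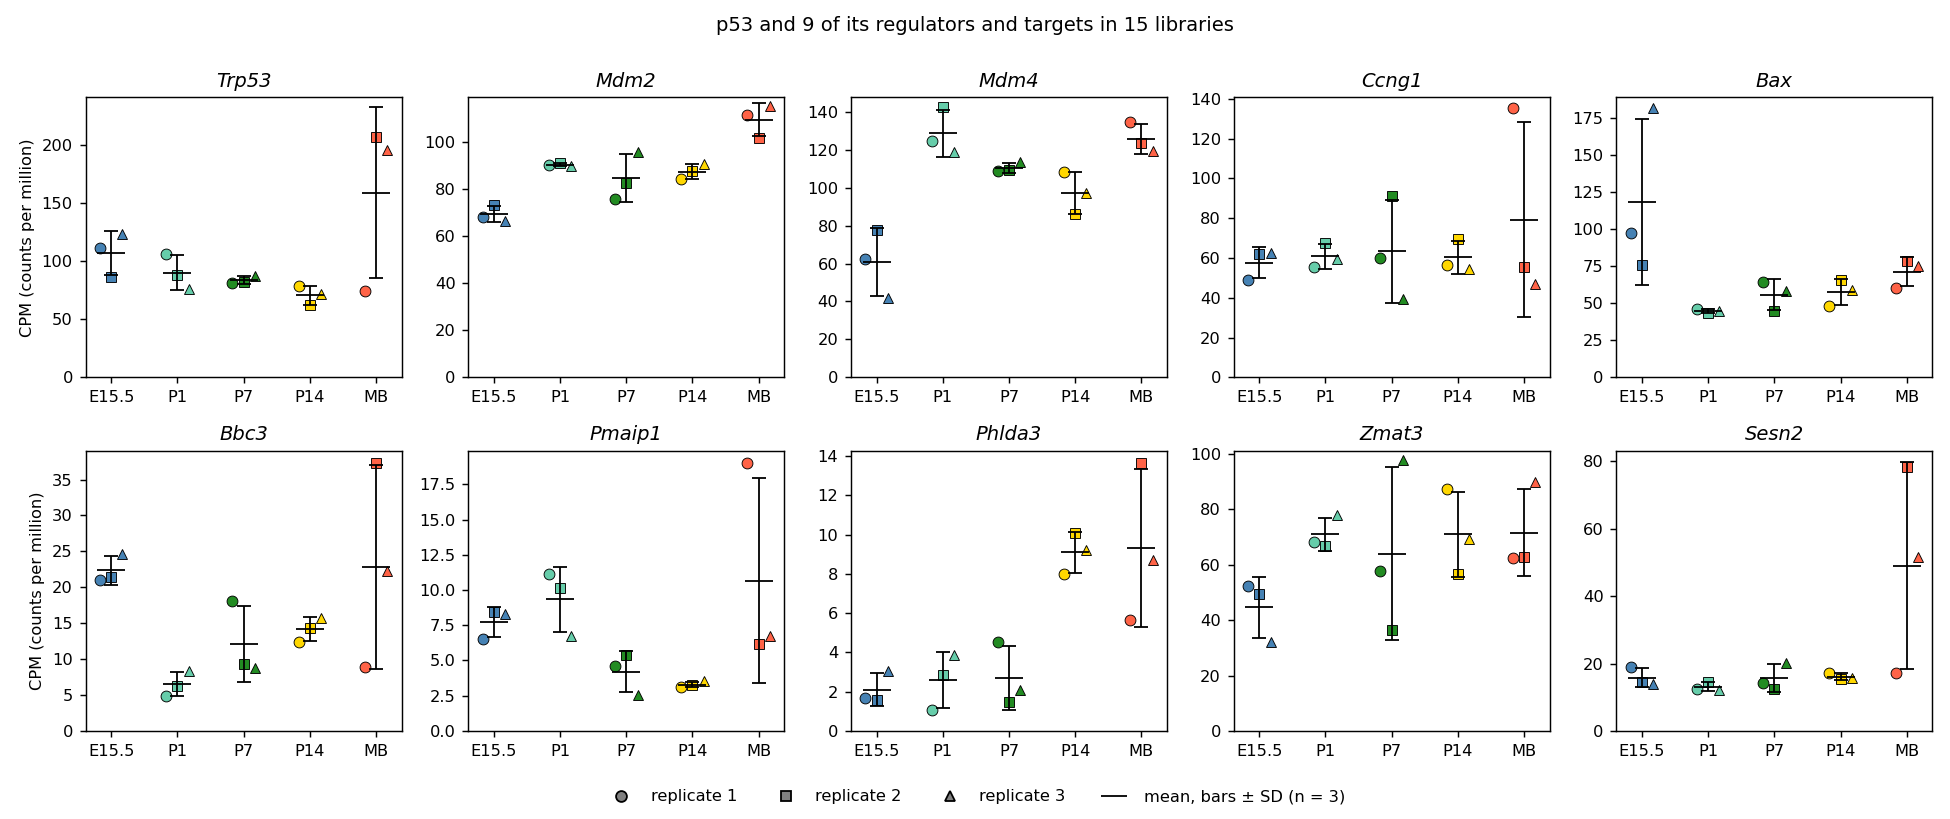
Expression of the 10 genes in each of the 15 libraries, in CPM on linear axes that start at 0, with the mean and SD of the 3 libraries of each group. Bax and Bbc3 are highest or near highest at E15.5, Phlda3 is low until P14, and the MB libraries are far apart for Trp53, Ccng1, Bbc3, Pmaip1 and Sesn2.

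Between E15.5 and P1 the inhibitors of p53 rose and the cell death targets Bax and Bbc3 fell, while Trp53 was not called. Of the 10 genes, 2 were called higher and 2 lower at P1 by edgeR's quasi-likelihood test at a Benjamini-Hochberg adjusted p under 0.05. Over all 15259 genes tested, 46.3% were called in this comparison, 25.4% higher and 20.9% lower, so the share of p53 genes called was near the background. Age, the Math1-GFP genotype of the E15.5 mice and the low glial and endothelial markers at E15.5 all differ here and cannot be told apart.

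Mdm4 stood at 62.6, 77.8 and 42.1 CPM in the E15.5 libraries and at 125, 142 and 119 CPM at P1. Every P1 library lay above every E15.5 library, and the log2 fold change was 1.08 (SE 0.19, adjusted p = 3.54e-04). Mdm2 went from 68.1, 73.2 and 66.6 CPM to 90.1, 90.9 and 89.9 CPM. These groups did not overlap either, but the change was small, 0.38 on the log2 scale (SE 0.13, adjusted p = 0.0288), and leaving out any library of the 2 groups other than E15.5 replicate 2 ended the call, with adjusted p values of 0.0572 to 0.0915. The call also ended when genes with low counts were kept, when the 2 groups were fitted alone, and with a term for the 2 sets of libraries.

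Bax, which opens the outer mitochondrial membrane in apoptosis, was at 97.3, 76.2 and 182 CPM at E15.5 and at 46.2, 43.7 and 45.0 CPM at P1. All E15.5 libraries lay above all P1 libraries, with E15.5 replicate 3 far above the other 2, and Bax fell by 1.40 on the log2 scale (SE 0.27, adjusted p = 6.28e-04). Bbc3, which encodes the BH3-only protein Puma that releases Bax from its inhibitors, was at 21.1, 21.4 and 24.7 CPM at E15.5 and at 4.94, 6.28 and 8.36 CPM at P1. The groups lay well apart and the fall was 1.78 on the log2 scale (SE 0.42, adjusted p = 0.00284). Both calls held in every alternative fit and without any single library.

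The other 6 genes were not called between E15.5 and P1. Zmat3, an RNA-binding zinc finger protein, was at 52.5, 49.3 and 31.9 CPM at E15.5 and at 68.1, 66.8 and 77.8 CPM at P1. Its groups did not overlap, but the adjusted p was 0.0809 (log2 fold change 0.67, SE 0.30). Trp53 was at 112, 86.4 and 123 CPM at E15.5 and at 107, 88.3 and 76.2 CPM at P1, with overlapping groups and a log2 difference of -0.25 (SE 0.28, adjusted p = 0.502). The estimates for Ccng1, Pmaip1, Phlda3 and Sesn2 lay between -0.27 and 0.28, and their groups overlapped.

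After birth few of the 10 genes were called, and the share called over all genes was low too. Between P1 and P7 none of the 10 was called by edgeR or by DESeq2, against 3.15% of all genes by edgeR (1.40% higher and 1.74% lower), and 2 (Bbc3 and Pmaip1) had an unadjusted p under 0.05. Bbc3 was at 18.1, 9.30 and 8.74 CPM at P7, above all 3 P1 libraries (log2 difference 0.89, SE 0.41, adjusted p = 0.241). Pmaip1, which encodes the BH3-only protein Noxa that counters Mcl1, was at 11.2, 10.1 and 6.71 CPM at P1 and at 4.62, 5.41 and 2.58 CPM at P7, again without overlap (-1.14, SE 0.40, adjusted p = 0.124).

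From P7 to P14, 1 of the 10 was called, Phlda3, against 10.3% of all genes (5.81% higher and 4.51% lower). Phlda3 encodes a pleckstrin homology protein that competes with Akt for membrane lipids. It was at 1.07, 2.87 and 3.88 CPM at P1, at 4.53, 1.49 and 2.08 CPM at P7, and at 7.99, 10.1 and 9.19 CPM at P14. All 3 P14 libraries stood above all 9 younger ones. The log2 fold change was 1.75 against P7 (SE 0.49, adjusted p = 0.0346) and 1.80 against P1 (SE 0.49, adjusted p = 0.0362). The marker sums of oligodendrocytes and endothelium, given above, were also highest at P14. Choroid plexus markers summed to 5130 to 8514 CPM at P14, 14.2 to 1972 CPM at P7 and 298 to 10301 CPM at P1. Their part in the difference was not tested. Both calls ended when single libraries were left out, with little change in the estimate. Against P7 the call ended with the removal of P7 replicate 2 or 3 or of any P14 library (log2 1.45 to 1.83, adjusted p 0.0775 to 0.150) and with a term for the 2 sets of libraries, and against P1 with that of P1 replicate 1 or 2 or of any P14 library (1.43 to 1.88, adjusted p 0.0786 to 0.173).

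Over the whole span from P1 to P14, 2 of the 10 were called, against 8.94% of all genes (3.63% higher and 5.31% lower). Phlda3 rose, as given, and Pmaip1 fell by 1.50 on the log2 scale (SE 0.40, adjusted p = 0.0341). The P14 libraries held 3.14, 3.22 and 3.51 CPM of Pmaip1, a narrow range below every P1 library. That call ended without P1 replicate 1 or 2 or any P14 library (-1.35 to -1.55, adjusted p 0.105 to 0.157). Bbc3 at P14, 12.4, 14.4 and 15.7 CPM, lay above all P1 libraries (log2 difference 1.12, SE 0.41, adjusted p = 0.0946). It was called by DESeq2 (adjusted p = 0.0413) and when P1 and P14 were fitted alone (adjusted p = 0.0213). Mdm4 at P14, 108, 85.9 and 97.0 CPM, lay below all P1 libraries (-0.41, SE 0.19, adjusted p = 0.176). It was called lower with P1 and P14 fitted alone (adjusted p = 0.0436) and with libraries of 1 set (adjusted p = 0.0284).

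Asked for any difference among the 4 ages in 1 test, edgeR called 5 of the 10, against 55.7% of all genes. They were Bax (adjusted p = 0.00133), Mdm4 (0.00163), Phlda3 (0.00374), Bbc3 (0.0136) and Pmaip1 (0.0136). Trp53, Mdm2, Ccng1, Zmat3 and Sesn2 were not called across the ages, with adjusted p values of 0.303, 0.0832, 0.985, 0.190 and 0.866. Trp53 had its highest mean at E15.5 (107 ± 18.8 CPM, SD, n = 3) and its lowest at P14 (70.8 ± 8.27 CPM). Neighbouring ages overlapped for Trp53 except P7 and P14, where the 3 P14 libraries (78.5, 62.1 and 71.9 CPM) lay just below the 3 P7 libraries (81.2, 82.4 and 87.7 CPM).

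In medulloblastoma 5 of the 10 genes were called higher than in P7 precursors: Trp53, Mdm2, Sesn2, Phlda3 and Pmaip1. All 10 estimates were above 0, with a median log2 difference of 0.65 against 0.02 over all genes tested, and no gene of the 10 was called lower by edgeR or DESeq2. Of all genes, 34.5% were called in this comparison, 13.7% higher and 20.7% lower. The count of 5 became 1 with a term for the 2 sets of libraries, 1 within 1 set (MB replicate 1 against P7), 2 with MB and P7 fitted alone and 2 to 4 without single libraries. Other cell markers differed as well: microglial and macrophage markers summed to 188 to 507 CPM in MB and 61.8 to 161 CPM at P7, Purkinje and interneuron markers to 25.6 to 42.7 CPM and 378 to 934 CPM, and granule neuron markers to 1037 to 1556 CPM and 3562 to 3705 CPM. Their part in these differences was not tested. Against P14, which shares the 3 MB libraries with the comparison against P7, 3 of the 10 were called higher (Trp53, Pmaip1 and Sesn2), where 50.0% of all genes were called, 22.9% higher and 27.2% lower. All 10 estimates were again above 0, with a median of 0.38 against 0.01 over all genes. Within the 9 libraries of the other set, which left MB replicates 2 and 3, the count against P14 was 7, with Mdm2, Mdm4, Bax and Bbc3 added to those 3, and 4794 genes in all were called higher.

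**Figure D2:**
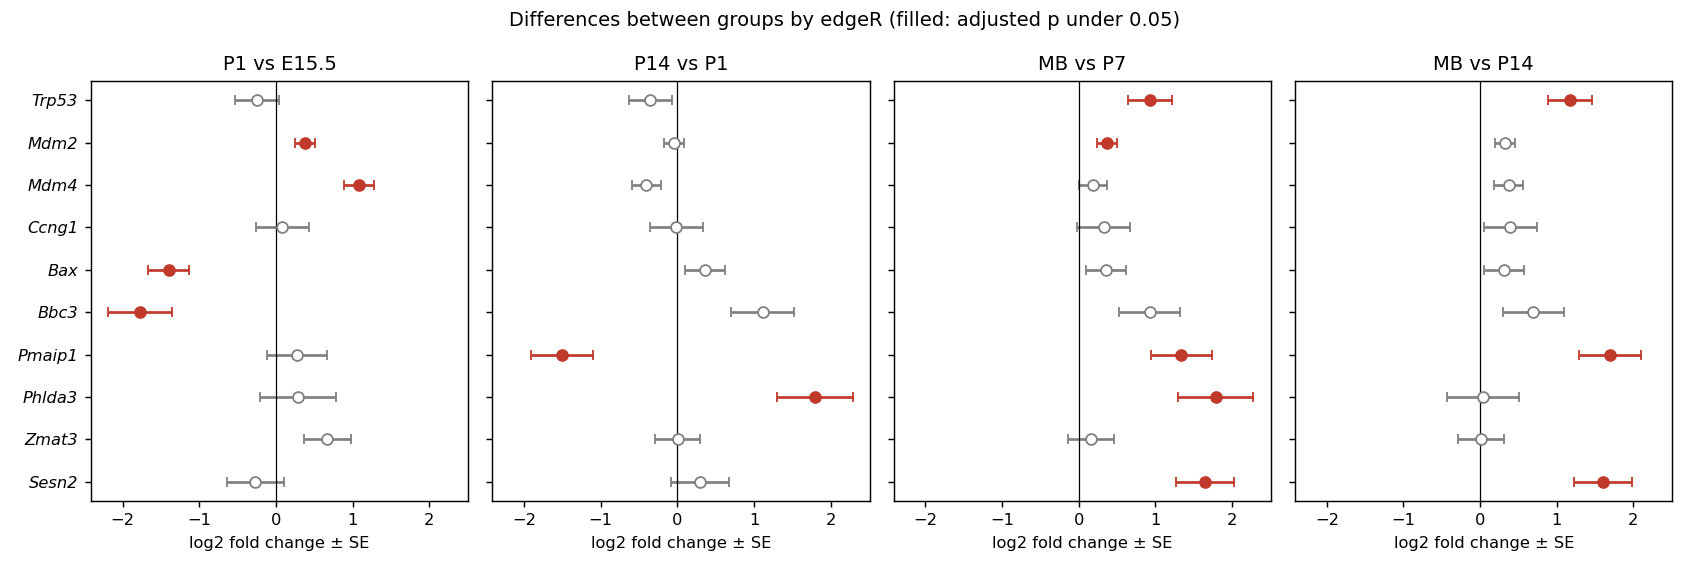
Fitted log2 fold change with its SE for each of the 10 genes in 4 comparisons by edgeR, with filled red points where the adjusted p was under 0.05. The points for P1 against E15.5 fall on both sides of 0, and all those for MB lie at or to the right of 0.

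The 3 tumour libraries were not alike. Trp53 was at 74.7 CPM in MB replicate 1, inside the range of the precursors, and at 207 and 196 CPM in replicates 2 and 3, above all 12 precursor libraries. The groups therefore overlapped, and the log2 fold change was 0.93 against P7 (SE 0.29, adjusted p = 0.0197) and 1.17 against P14 (SE 0.29, adjusted p = 0.00330). Within the 6 libraries of 1 set, only MB replicate 1 stood for the tumours, and Trp53 was then 0.12 lower than in P7. The call against P7 also ended with a term for the 2 sets of libraries (0.52, adjusted p = 0.315), with MB and P7 fitted alone (0.97, adjusted p = 0.0880), and without P7 replicate 1 (0.95), P7 replicate 2 (0.92), MB replicate 2 (0.69) or MB replicate 3 (0.75). The call against P14 held in each alternative that was run.

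Sesn2, a stress-induced protein that restrains mTORC1, followed the same libraries. It stood at 17.3 CPM in MB replicate 1 and at 78.4 and 51.7 CPM in replicates 2 and 3, while the 12 precursor libraries lay between 12.2 and 20.3 CPM. Its log2 fold change was 1.65 against P7 (SE 0.38, adjusted p = 0.00322), where the groups overlapped through MB replicate 1. Against P14 it was 1.61 (SE 0.38, adjusted p = 0.00252). There MB replicate 1, at 17.29 CPM, was barely above the highest P14 library, at 17.26 CPM. With MB replicate 1 as the only tumour, inside 1 set of libraries, the estimate against P7 was 0.19 (adjusted p = 0.743), and with a term for the set 0.90 (adjusted p = 0.153).

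Bbc3 had the same order of tumours, with 8.93 CPM in MB replicate 1, 37.3 in replicate 2 and 22.3 in replicate 3. It was not called against P7 (0.92, SE 0.40, adjusted p = 0.0908) or P14 (0.69, SE 0.40, adjusted p = 0.163). Without MB replicate 1 it was called against both, at 1.31 (adjusted p = 0.00488) and 1.08 (adjusted p = 0.0110), and without P7 replicate 1 against P7 (1.39, adjusted p = 0.0279). Even replicate 2 exceeded the E15.5 libraries, where Bbc3 was highest among precursors, by only 1.51-fold.

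Pmaip1 and Ccng1 ran the other way among the tumours. Pmaip1 was at 19.0 CPM in MB replicate 1 and at 6.18 and 6.76 CPM in replicates 2 and 3, all above P7 (2.58 to 5.41 CPM) and P14 (3.14 to 3.51 CPM). The log2 fold change was 1.34 against P7 (SE 0.40, adjusted p = 0.0164) and 1.69 against P14 (SE 0.40, adjusted p = 0.00267). Without MB replicate 1 it was 0.62 against P7 and no longer called (adjusted p = 0.121), as also without P7 replicate 3 (1.08, adjusted p = 0.0726) and with MB and P7 fitted alone (1.36, adjusted p = 0.0880). The level of MB replicate 3 lay inside the range of E15.5 and P1 (6.50 to 11.2 CPM), and that of replicate 2 just below it.

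Ccng1, which encodes cyclin G1, a partner of protein phosphatase 2A that acts on Mdm2, was at 135 CPM in MB replicate 1 and at 55.4 and 47.0 CPM in replicates 2 and 3. Only the first exceeded the precursors, which ran from 39.2 to 91.0 CPM. The difference from P7 was 0.32 (SE 0.35, adjusted p = 0.509), and the same gene spread 2.32-fold among the 3 P7 libraries.

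Mdm2 was the only one of the 10 that lay above all 12 precursor libraries in every tumour. It was at 112, 102 and 115 CPM in MB, against 75.9, 82.7 and 95.8 CPM at P7. The shift was small, 0.37 on the log2 scale (SE 0.13, adjusted p = 0.0428), and it was not called against P14 (0.32, SE 0.13, adjusted p = 0.0546) by edgeR but was by DESeq2 (adjusted p = 0.0228). The call against P7 ended in 11 of 14 alternatives, among them the removal of any MB library or of P7 replicate 1 or 2 (0.33 to 0.42, adjusted p 0.0505 to 0.117). Mdm4 in MB, at 134, 124 and 119 CPM, lay above the P7 libraries (109, 109 and 114 CPM) by 0.19 on the log2 scale, which was not called (SE 0.19, adjusted p = 0.484), and inside the range of P1.

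Phlda3 was at 5.63, 13.6 and 8.69 CPM in MB. It lay above all P7 libraries (log2 fold change 1.79, SE 0.49, adjusted p = 0.00974) and overlapped P14 (0.04, SE 0.47, adjusted p = 0.955). Oligodendrocyte and endothelial markers, which were high with Phlda3 at P14, were at 652 to 957 CPM and 27.9 to 44.5 CPM in MB, overlapping those of P7 for the first and below them for the second. The call against P7 ended without MB replicate 2 (1.40, adjusted p = 0.0505), with a term for the 2 sets of libraries (1.55, adjusted p = 0.0751) and with MB replicate 1 as the only tumour (1.11, adjusted p = 0.209).

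Bax and Zmat3 were not called in MB. Bax was at 60.5, 78.6 and 75.1 CPM against 64.4, 44.5 and 58.6 CPM at P7 (0.35, SE 0.26, adjusted p = 0.324), below the 97.3 and 182 CPM of E15.5 replicates 1 and 3. Zmat3 was at 62.4, 62.7 and 89.7 CPM in MB, with 36.3 to 97.7 CPM at P7 (0.16, SE 0.30, adjusted p = 0.720). The range of 2 SE on either side was -0.44 to 0.76.

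**Figure D3:**
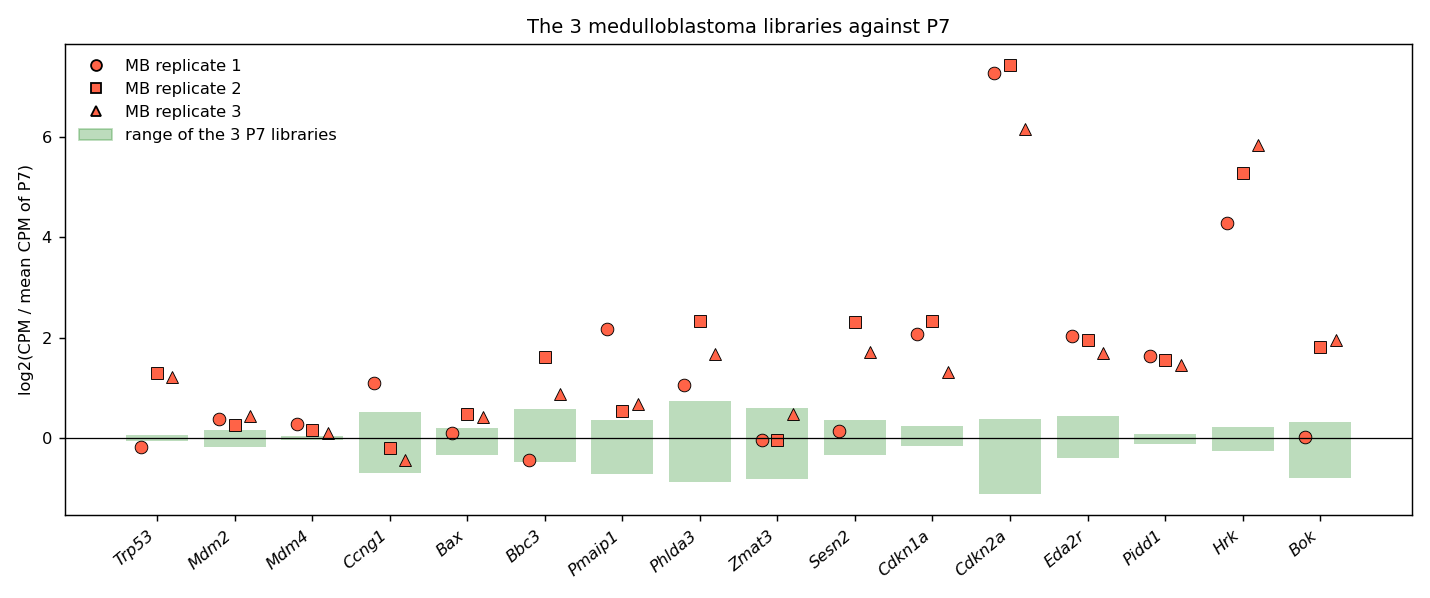
Each MB library as log2 of its CPM over the mean CPM of P7, for the 10 genes and 6 related genes, with green bars for the range of the 3 P7 libraries. MB replicate 1 lies below the P7 range for Trp53 and inside it for Bax, Bbc3, Zmat3, Sesn2 and Bok. It lies above that range for Mdm2, Mdm4, Ccng1, Pmaip1 and Phlda3. All 3 libraries stand far above the range for Cdkn1a, Cdkn2a, Eda2r, Pidd1 and Hrk.

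Counted by library, 3 of the 10 genes exceeded all 12 precursor libraries in MB replicate 1 (Mdm2, Ccng1 and Pmaip1), 5 in replicate 2 (Trp53, Mdm2, Bbc3, Phlda3 and Sesn2) and 3 in replicate 3 (Trp53, Mdm2 and Sesn2), where 24.1%, 17.2% and 16.0% of all genes tested did so. Mdm2 alone did so in all 3, as did 8.43% of all genes. No gene of the 10 lay below all precursors in any tumour, where 25.6%, 18.5% and 17.7% of all genes did in replicates 1, 2 and 3, and 11.6% in all 3. MB replicate 1 differed from the other 2 tumours in its set of libraries and in its share of multiply aligned reads, given above. It also differed in microglial markers, whose sum was 507 CPM against 221 and 188 CPM. For each of the 10 genes, the share of the transcript table's reads found in the gene table overlapped between the 2 sets. The part of the set, the multiply aligned reads and the microglial markers in the differences among tumours was not tested.

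Among 25 other p53 targets, 7 were called higher and 2 lower in MB than at P7 (13.7% and 20.7% of all genes), with a median log2 difference of 0.17. Cdkn1a, which encodes the cell cycle inhibitor p21, was at 26.8, 26.7 and 34.7 CPM at P7 and at 125, 148 and 73.8 CPM in MB, so that all tumours lay above all precursors. It rose by 1.97 on the log2 scale (SE 0.26, adjusted p = 3.25e-05). Eda2r, a receptor of the tumour necrosis factor family, went from 20.2, 31.5 and 17.8 CPM to 95.6, 90.1 and 75.2 CPM (1.91, SE 0.22, adjusted p = 9.13e-06). Pidd1, a death domain protein that assembles the platform for caspase 2, went from 21.5, 24.4 and 23.3 CPM to 72.0, 68.5 and 63.4 CPM (1.56, SE 0.24, adjusted p = 1.43e-04). MB replicate 1, the tumour with the lowest Trp53, was not the lowest tumour for any of these 3 genes. It was the lowest for Sesn2, Bbc3, Phlda3, Bax and Zmat3, and was not for Mdm2, Mdm4, Ccng1 and Pmaip1. A link to the level of Trp53 was not tested.

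The 2 targets that fell in MB were Plk2, a polo-like kinase, which went from 69.6, 61.3 and 42.9 CPM at P7 to 11.4, 16.5 and 11.8 CPM (-2.13, SE 0.24, adjusted p = 8.85e-06), and Perp, a membrane protein of desmosomes (-1.40, SE 0.50, adjusted p = 0.0409). The call of Perp ended in 7 of 15 alternatives, among them the removal of any single P7 or MB library (-1.24 to -1.63, adjusted p 0.0531 to 0.104). Gadd45a, a growth arrest gene, was at 21.0 to 25.3 CPM at P7 and at 23.5 to 27.4 CPM in MB, with overlapping groups (0.09, SE 0.20, adjusted p = 0.772). Against P14, 8 of the 25 were higher and 6 lower (22.9% and 27.2% of all genes). Eda2r (2.63) and Pidd1 (2.00) led the higher, and Perp (-3.18) and Plk2 (-2.80) the lower. In all 3 tumours 7 of the 25 exceeded every precursor library, beside 8.43% of all genes: Cdkn1a, Eda2r, Apaf1, Pidd1, Tigar, Ckap2 and Gtse1, named after their values were seen. Ckap2 and Gtse1 are expressed in dividing cells, and summed proliferation markers were at 3585 to 5127 CPM in MB, 2712 to 3878 CPM at P7 and 1170 to 1431 CPM at P14. The part of proliferation in these values was not tested.

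Between E15.5 and P1, 10 of the 25 other targets were higher and 1 lower, with a median of 0.47 against 0.03 over all genes, and the share called was near the 46.3% of all genes. Eda2r rose by 2.37 (SE 0.23, adjusted p = 2.08e-06), Cdkn1a by 0.93 (SE 0.26, adjusted p = 0.00796) and Perp by 2.14 (SE 0.50, adjusted p = 0.00298), and Plk3 fell by 0.73 (SE 0.23, adjusted p = 0.0155). Within 1 set of libraries Cdkn1a (0.79, adjusted p = 0.164) and Perp (2.03, adjusted p = 0.129) were not called, and Plk3 was not without P1 replicate 2 (-0.70, adjusted p = 0.0534). From P1 to P14, 3 of 25 fell, against 5.31% of all genes: Ckap2 (-1.10, adjusted p = 0.0102), Gtse1 (-0.76, adjusted p = 0.0419) and Eda2r (-0.76, adjusted p = 0.0417). Each of these 3 calls ended without P1 replicate 1 or 2 or P14 replicate 1 or 2 (-0.61 to -1.07, adjusted p 0.0506 to 0.218). Cdkn1a was at 43.5 to 50.5 CPM at P14, above the 22.9 to 40.1 CPM of P1, and was not called (0.63, SE 0.25, adjusted p = 0.124).

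**Figure D4:**
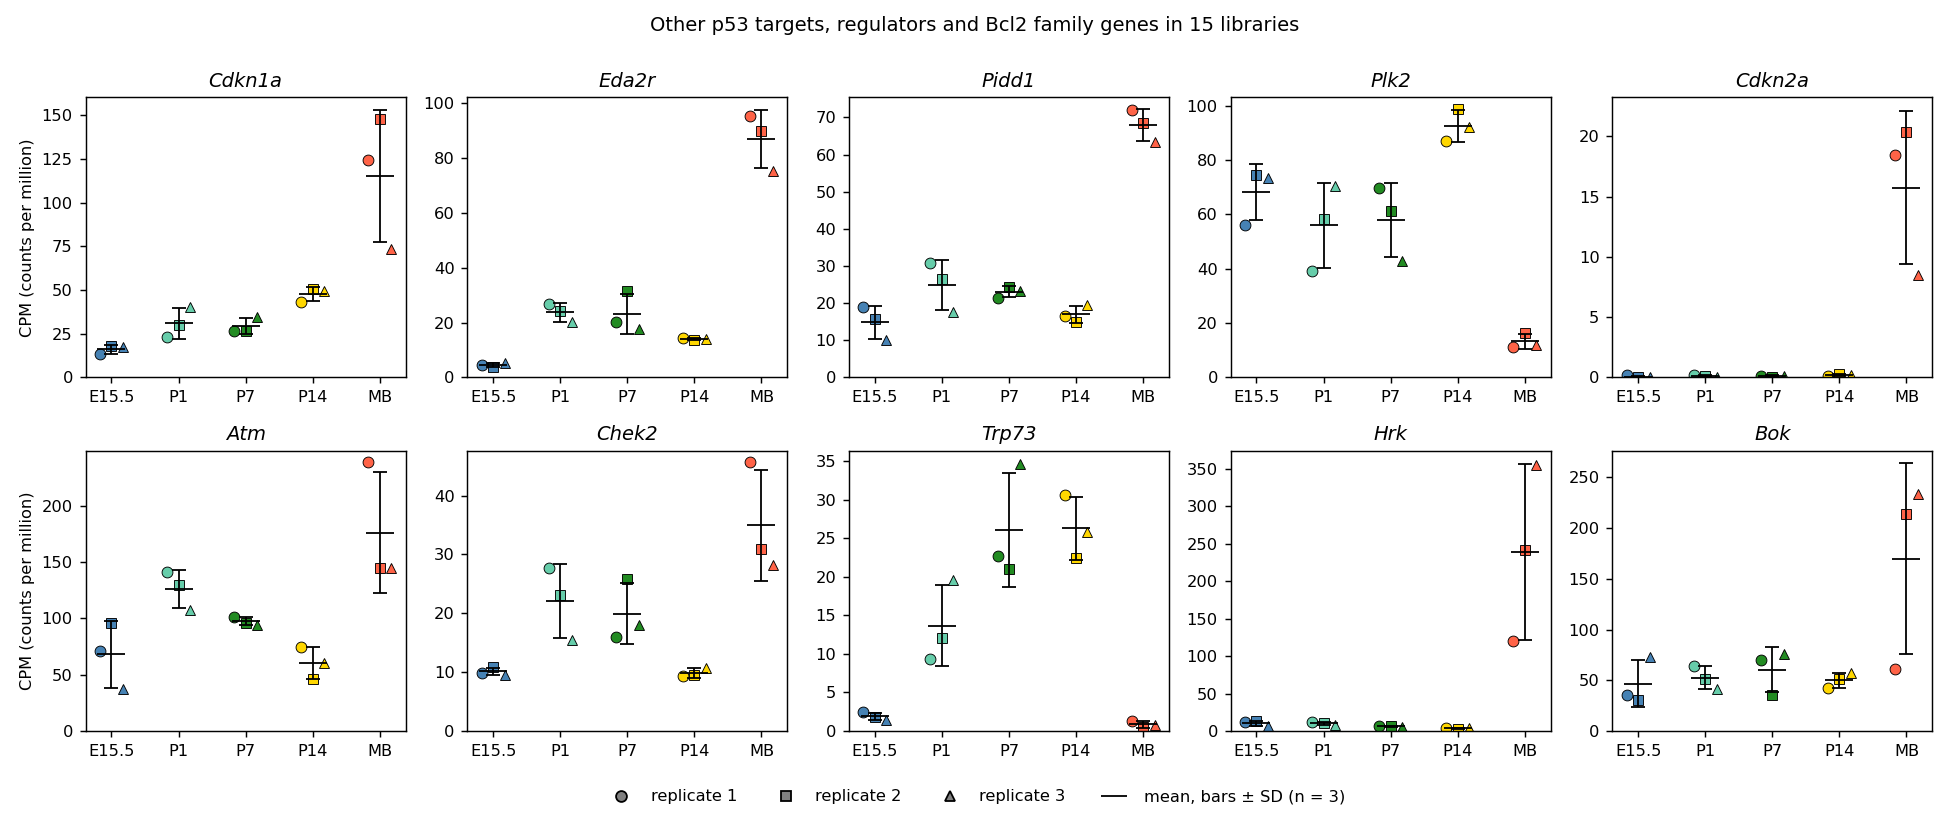
Expression of 10 other genes of the pathway in each library, in CPM on linear axes that start at 0, with the mean and SD of the 3 libraries of each group. Cdkn2a is near 0 in all precursors and present in all 3 MB libraries, while Plk2 and Trp73 are lowest or near lowest in MB.

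Of 20 regulators of p53, 5 were higher and 1 lower in MB than at P7 (13.7% and 20.7% of all genes), with a median of 0.18. Cdkn2a, whose Arf product binds Mdm2 and whose p16 product inhibits Cdk4, was nearly silent in precursors. It had 4 counts in all at E15.5, 9 at P1, 11 at P7 and 20 at P14, and 1510 in MB, at 18.4, 20.3 and 8.49 CPM. The fitted log2 fold change against P7 was 7.04 (SE 0.65, adjusted p = 1.04e-06), and counts per gene do not separate the Arf and p16 products. Trp73, a p53 relative, went from 22.7, 21.0 and 34.6 CPM at P7 to 1.35, 0.513 and 0.720 CPM in MB (-4.94, SE 0.41, adjusted p = 4.41e-07). Trim24, a ubiquitin ligase for p53, rose by 1.24 (SE 0.19, adjusted p = 1.52e-04).

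The damage kinases Atm, Chek1 and Chek2 were also called higher in MB, but less firmly. Atm was at 101, 96.2 and 94.5 CPM at P7 and at 238, 145 and 145 CPM in MB (0.85, SE 0.29, adjusted p = 0.0338), and Chek1 differed by 0.87 (SE 0.30, adjusted p = 0.0323) with overlapping groups. The call of Atm ended in 5 of 14 alternatives, among them the removal of MB replicate 1 (0.57, adjusted p = 0.141) or of any P7 library (0.83 to 0.92). That of Chek1 ended in 4 of 15, among them the removal of MB replicate 1 (0.49, adjusted p = 0.170) or of P7 replicate 1 or 3 (0.80 and 0.73). The Chek2 call ended with MB and P7 fitted alone (0.84, adjusted p = 0.0666). It also ended without MB replicate 1 (0.57) or P7 replicate 1 or 3 (0.71 and 0.74). Against P14, 9 of 20 regulators were higher and 2 lower (22.9% and 27.2% of all genes), with a median of 0.62. Chek1 was among the higher (2.13, adjusted p = 4.55e-05). Between P1 and P14, 4 of 20 fell, against 5.31% of all genes. They were led by Chek1 (-1.62, adjusted p = 0.00774), Chek2 (-1.16, adjusted p = 0.0165) and Atm (-1.06, adjusted p = 0.0393). All 3 calls ended without P1 replicate 1 or P14 replicate 2 (-0.90 to -1.60, adjusted p 0.0531 to 0.171). From E15.5 to P1, 5 of 20 rose and 4 fell, near the 25.4% and 20.9% of all genes. Trp73 (2.86) and Chek2 (1.13) were in front among those that rose, and Kat5 (-1.15) and Trp53bp1 (-0.84) among those that fell.

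Of 19 genes of the Bcl2 family and caspases, 4 were higher and 4 lower in MB than at P7, a share lower that was near the 20.7% of all genes (13.7% were higher). Hrk, a BH3-only gene, went from 7.22, 6.10 and 5.24 CPM to 120, 242 and 355 CPM (5.27, SE 0.39, adjusted p = 1.28e-07), against differences of 0.92 for Bbc3 and 1.34 for Pmaip1. Bok, a relative of Bax, rose by 1.49 (SE 0.44, adjusted p = 0.0152) through MB replicates 2 and 3 (214 and 234 CPM), since replicate 1, at 61.6 CPM, lay inside the P7 range of 35.0 to 76.2 CPM. The call of Bok ended without P7 replicate 2 or MB replicate 2 or 3 (1.19 to 1.29), with a term for the 2 sets (1.03) and within 1 set (0.08, adjusted p = 0.925), and that of Bak1 without P7 replicate 2 or 3 or MB replicate 1 or 3 (-0.45 to -0.79). Casp8 (-1.29, adjusted p = 0.00717), Casp9 (-0.80, adjusted p = 5.64e-04) and Bak1 (-0.70, adjusted p = 0.0378) were lower. The call of Casp8 ended with MB and P7 fitted alone (-1.27, adjusted p = 0.0581). With MB replicate 1 as the only tumour, inside 1 set of libraries, Casp8 was at -0.52 and Casp9 at -0.85. Bcl2 was not called (0.38, adjusted p = 0.295).

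Between E15.5 and P1, when Bax and Bbc3 fell, 3 of the 19 rose and 5 fell, a share called near the 46.3% of all genes. Casp8 was among those that rose (1.46, SE 0.34), and Bmf (-1.16, SE 0.23) and Bad (-1.15, SE 0.31), which both encode BH3-only proteins, fell. Within 1 set of libraries Bad was at -0.60 and not called (adjusted p = 0.0535). From P1 to P14 Hrk fell by 1.58 (SE 0.35, adjusted p = 0.0154), a call that ended without P1 replicate 1 or 2 or any P14 library (-1.44 to -1.63, adjusted p 0.0588 to 0.0885).

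The 10 genes did not form 1 pattern over the 15 libraries. Among their 45 pairs, Pearson's r of log2 CPM had a median of 0.15, with 10 pairs above 0.5 and 3 below -0.5. The libraries share groups and depth, so these values are a description. The highest were Trp53 with Sesn2 (0.82), Mdm2 with Mdm4 (0.78) and Bax with Bbc3 (0.73), and the lowest was Mdm4 with Bax (-0.84). MB replicates 2 and 3 were the highest libraries for both Trp53 and Sesn2, while Sesn2 stayed between 12.2 and 20.3 CPM in the precursors. The correlation without these tumours was not computed. Over 11575 genes of at least 5 CPM, those most like Trp53 across the 15 libraries were Pycr1 (r = 0.98), Rcc2 (0.97) and Shmt2 (0.95). Those most like Mdm2 were Xrcc3 (0.96), Rbsn (0.95) and Map3k20 (0.95), and those most like Ccng1 were Rap1b (0.96), Fbxo3 (0.95) and B2m (0.92). No other member of the 10 was among these nearest genes.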

How the data were processed

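The authors deposited raw read counts per Ensembl gene, per transcription start site model and per transcript for each library. Per the submitters' processing notes, Trimmomatic, TopHat, StringTie, HTSeq and the build mm9 were used, with versions and strand setting not given in the sources used here. Reads in genes made up 39.5% to 55.4% of all records. The lines that name no gene stayed out of library sizes and tests. Low genes were removed with filterByExpr (count of 10, total of 15), which left 15259 genes, and TMM factors were computed. edgeR 4.0.16 (R 4.3.3) fitted 1 mean per group over all 15 libraries, with 10 residual degrees of freedom, and its quasi-likelihood F-test was adjusted by the Benjamini-Hochberg method over all genes tested. A gene was called at an adjusted p under 0.05. SE values are on the log2 scale. The fit was tested on simulated counts in which all genes had the same dispersion, so that test does not cover genes with a wider spread between libraries.

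In mm9 the gene models lie at chr11:69393907-69405375 (Trp53, ENSMUSG00000059552), chr10:117125944-117147814 (Mdm2, ENSMUSG00000020184), chr1:134886422-134921943 (Mdm4, ENSMUSG00000054387), chr11:40562054-40568813 (Ccng1, ENSMUSG00000020326), chr7:52717065-52722268 (Bax, ENSMUSG00000003873), chr7:16894965-16903554 (Bbc3, ENSMUSG00000002083), chr18:66618258-66625204 (Pmaip1, ENSMUSG00000024521), chr1:137662696-137665713 (Phlda3, ENSMUSG00000041801), chr3:32233718-32264600 (Zmat3, ENSMUSG00000027663) and chr4:132047947-132066416 (Sesn2, ENSMUSG00000028893), and no other gene model overlapped them. Promoter sequences are from RefSeq on GRCm38.p6. No coordinates were converted.

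The 10 genes, the lists of other targets, regulators, Bcl2 family genes (19 of 20 matched) and markers, and the naming rule, were picked with earlier results of these data known. The rule named all 10 genes, Cdkn1a, Cdkn2a, Gadd45a, Bcl2 and Atm, and from each list the called genes with the largest change in each direction among those of at least 2 CPM. Some genes that the rule named are not reported here. The genes of a list that exceeded all precursors in all tumours were named after their values were seen. Alternatives were DESeq2 1.42.0, other size factors, no filter, the groups compared alone, the other 2 tables, a replicate block, a term for the counting set, libraries of 1 set (chosen after seeing the data) and leaving out each library.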

Additional observations from a re-analysis of the deposited data

How the results depend on the processing

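Of 60 values for the 10 genes, 15 were called. Of these, 6 stayed called in every alternative and 9 lost the call in at least 1, while 8 of the 45 uncalled values gained one. Of 71 called values of the other listed genes, 32 lost the call in at least 1. The 1 called value that turned was Trp53 in MB against P7, -0.12 with libraries of 1 counting set, where MB replicate 1 was the only tumour. Counts of p53 genes called higher moved as follows. For P1 against E15.5, 2 became 1 with no filter on low counts, with a counting set term and with libraries of 1 set. The count was also 1 with the TSS model table, which tested 9 of the 10 genes and lacked Mdm2. Without single libraries it was 1 to 2. For P14 against P7, 1 became 0 with a replicate block and with the set term, and 0 to 1 without single libraries. For P14 against P1, 1 became 2 with DESeq2, with the groups alone and with libraries of 1 set, and 0 to 1 without single libraries, and the count lower went from 1 to 2 with the groups alone and with 1 set, and 0 to 1 without single libraries. For MB against P7, 5 became 2 with the groups alone, 1 with the set term, 1 with 1 set, and 2 to 4 without single libraries. For MB against P14, 3 became 7 with 1 set.

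Counts over all genes moved too. For P1 against E15.5, 3870 higher of 15259 genes tested became 2487 of 10591 with the TSS model table. For P7 against P1, 214 higher became 509 with DESeq2, 101 with the groups alone, 107 with the replicate block, 76 with the set term and 1 to 484 without single libraries. The 266 lower became 700, 102, 141 and 121 in the same order, and 8 to 404. For P14 against P7, 886 higher became 1435 with DESeq2, 2257 alone, 217 with the set term and 86 to 507, and 688 lower became 1581 alone, 78 with the set term and 36 to 570. For P14 against P1, 554 higher became 1198 with DESeq2, 1919 alone, 2180 with 1 set and 2 to 1479, and 810 lower became 2170 alone, 2534 with 1 set and 145 to 1235. For MB against P7, 2096 higher became 1343 alone. The causes were not tested.

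Replicate numbers did not pair the libraries: deviations of same-numbered libraries had correlations of -0.31 to 0.33, with 7 of 30 over 0.1, against 14 of 60 for other numbers. The replicate block gave 4 p53 genes called higher in MB against P7. P7 lies wholly in 1 counting set and P1 and P14 wholly in the other, so no value within 1 set exists for comparisons of P7 with those ages, and the set term rests on E15.5 and MB. With MB replicate 1 as the only tumour the lone sample is assumed to vary like the other groups. Depth limits Phlda3 (19 counts at the lowest) and Cdkn2a in precursors.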
